A study of Mus musculus with 3 samples.

Results

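The cells described here are endothelial cells from mouse gastrocnemius, a hindlimb calf muscle, with transcripts of artery genes and of 4 genes called elastic here for short. Of these 4, Eln and Fbln5 are elastic-fibre genes, while Stmn2 and Gkn3 are grouped with them by the rule only. The cells were chosen by UMI counts, a UMI being 1 tagged RNA molecule. A barcode, which stands for 1 captured cell, needed at least 3 UMIs over Fbln5, Stmn2, Gkn3 and Eln, at least 1 UMI over the artery genes Sema3g, Gja5, Gja4, Bmx and Hey1, and at most 2 UMIs over the vein genes Nr2f2, Ackr1, Selp and Lrg1. Of 11554 barcodes with at least 300 genes and at most 10% mitochondrial UMIs, 1030 met this rule and are called members here. The running library gave 265 members of 3212 barcodes, the sedentary library 310 of 4016 and the untreated library 455 of 4326. They were set against 2 comparison groups. The first was 232 arteriole-marked barcodes, with at least 3 UMIs over the 5 artery genes and at most 1 over the 4 elastic genes. The second was the 10524 other barcodes that passed the filters.

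All mice were of the C57BL/6N strain, and live CD31+ cells without CD45 were sorted, which limits the data to endothelium and what passed the gate with it. Mice of the running group lived alone with a wheel for 14 days, and mice of the sedentary group lived alone without one. The third group was labelled as untreated, and its housing is not given in the sources used here. Every group had 1 library, the number of animals behind each is not given, and for the untreated library batch and group cannot be told apart. No difference between groups therefore has a replicate check, no test was made, and all intervals below are 95% intervals that cover counting error only. PCR copies were collapsed to UMIs, but cells of 1 library share their animals and preparation and are not replicates.

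Large arteries carry concentric sheets of elastic fibre that stretch and recoil with each heartbeat, while arterioles rely mainly on smooth muscle tone. Elastin, encoded by Eln, is the core of these fibres, and fibulin-5, encoded by Fbln5, helps to assemble elastin onto a scaffold of fibrillin microfibrils. Stmn2 encodes stathmin-2, a microtubule regulator best known from neurons. Gkn3 encodes a secreted gastrokine, and its transcripts are known from artery endothelium of the mouse brain. Among the artery genes, Gja5 and Gja4 encode connexin 40 and connexin 37 of endothelial gap junctions, Hey1 a Notch target transcription factor, Bmx a tyrosine kinase and Sema3g a secreted semaphorin.

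Members held 751252 UMIs in the running, 722487 in the sedentary and 1177132 in the untreated library, with medians of 2507, 2102 and 2269 UMIs per barcode. The other barcodes had medians of 1456, 1042 and 1524 UMIs, and the arteriole-marked ones 2156, 1712 and 1799, so members were the deepest of the 3 groups in every library. The rule counts UMIs, so deeper barcodes reach it more easily. Arteriole-marked barcodes numbered 48, 39 and 145, which makes ratios against them the least precise ones here. The running and sedentary libraries had 23 barcodes in common, the running and untreated 20 and the sedentary and untreated 32. A barcode was a member in both libraries of the pair in 1, 0 and 0 cases.

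The endothelial genes Pecam1, which encodes CD31, and Cdh5, which encodes VE-cadherin, were found in most members. Pecam1 was detected in 90.9%, 89.4% and 91.4% of running, sedentary and untreated members, and Cdh5 in 90.9%, 87.1% and 91.0%. The leukocyte genes Ptprc, Lyz2 and C1qa had 0 UMIs in members of every library, and the 14 leukocyte markers summed to 14.6, 11.1 and 4.25 CPM, which is UMIs of a gene per 1000000 UMIs of the same barcodes. The 13 Schwann and nerve markers, a group that matters because of Stmn2, summed to 24.0, 15.2 and 8.50 CPM, with Stmn3, Snap25, Elavl4 and Sox10 at 0 in all libraries. The other markers of that list had 18, 11 and 10 UMIs in all, over 3, 4 and 5 genes, and their part in the Stmn2 level was not tested.

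Transcripts of 2 further cell types were present. The 15 smooth muscle and pericyte markers summed to 531, 367 and 617 CPM in members, against 760, 897 and 1262 CPM in arteriole-marked barcodes and 582, 399 and 596 CPM in the other barcodes. Ccl21a, a lymphatic chemokine, reached 1034 CPM in running, 268 in sedentary and 90.9 in untreated members. Nearly all of it sat in 7, 2 and 1 members with at least 2 UMIs over 6 other lymphatic genes, which held 730 of 777, 183 of 194 and 101 of 107 Ccl21a UMIs. Without these 10 barcodes Ccl21a was at 64.8, 15.3 and 5.11 CPM, and none of them had a Gkn3 UMI. Leaving them out kept the counts of genes given below within 1.5 times their values.

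The genes lie at chr3:8509360-8561606 (Stmn2, plus strand), chr12:101746565-101819055 (Fbln5, minus), chr5:134702593-134747323 (Eln, minus), chr6:87383256-87388935 (Gkn3, minus) and chr6:136872435-136875823 (Mgp, minus) in GENCODE M21 on GRCm38. Stmn2 and Fbln5 supplied most of the UMIs by which members were chosen. Of the elastic-gene UMIs in members, Stmn2 gave 40.4% in the running, 47.1% in the sedentary and 43.3% in the untreated library. Fbln5 gave 42.0%, 37.8% and 32.2%, Eln gave 10.2%, 10.1% and 15.2%, and Gkn3 gave 7.36%, 5.04% and 9.25%. Most members would have qualified on Stmn2 and Fbln5 alone, namely 87.9%, 86.1% and 83.3%. Both genes were detected in 195, 220 and 314 members, and all 4 elastic genes in 29, 20 and 54. The median member had 5 elastic UMIs in each library, with maxima of 27, 24 and 39. Artery UMIs had medians of 3, 3 and 4, and 71, 78 and 79 members met that condition with a single one.

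**Figure D1:**
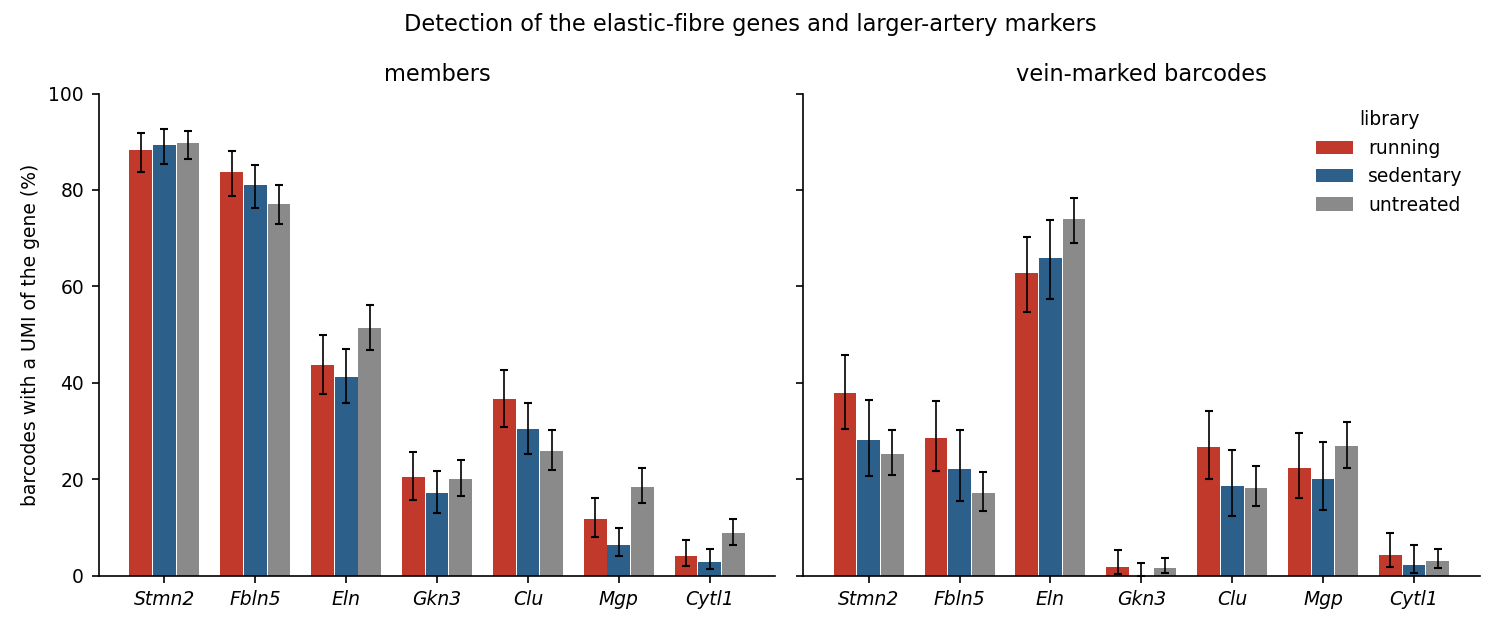
Percentage of members (left) and of vein-marked barcodes (right, at least 3 UMIs over the 4 vein genes) with a UMI of each gene, by library; bars are shares of barcodes and whiskers exact Clopper-Pearson 95% intervals. Stmn2 and Fbln5 were found in 77.1% to 89.7% of members and Gkn3 in 17.1% to 20.4%, while Eln was found in more vein-marked barcodes (62.7% to 73.9%) than members (41.3% to 51.4%).

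Detection of single genes differed widely among members. Stmn2 was detected in 88.3%, 89.4% and 89.7% of running, sedentary and untreated members, and Fbln5 in 83.8%, 81.0% and 77.1%. The rule itself raises the detection of its elastic genes in members. Gkn3 was found in 20.4%, 17.1% and 20.0%, against 1.15%, 0.728% and 0.672% of the other barcodes. In vein-marked barcodes (at least 3 UMIs over the 4 vein genes), a deeper group that serves as a measure of free RNA, it was found in 1.86% and 1.69% of running and untreated barcodes. It was found in 0 of 135 sedentary ones, where a floor of 3 counts would be 2.22%. Mgp, which encodes matrix Gla protein, an inhibitor of vessel calcification, was not in the rule and was found in 11.7%, 6.45% and 18.5% of members. The share with Mgp was highest in the untreated library and lowest in the sedentary one. Vein-marked barcodes held Mgp in 22.4%, 20.0% and 27.0%. After thinning to 1000 UMIs per barcode these shares were 7.34%, 4.84% and 12.7% of members, against 6.33%, 9.70% and 14.6% of vein-marked barcodes. Mgp was thus detected about as often in vein-marked barcodes as in members at this depth, or more often.

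Stmn2 was also seen outside the members. It had a UMI in 18.3%, 19.7% and 17.2% of the other barcodes and in 22.9%, 20.5% and 17.2% of arteriole-marked ones. After every barcode was thinned to 1000 UMIs, Stmn2 remained in 63.3%, 68.5% and 65.7% of members, against 12.8%, 17.9% and 12.2% of the other barcodes. Thinning left out 6, 21 and 15 members and 866, 1779 and 762 other barcodes.

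Eln followed another pattern, since vein-marked barcodes carried more of it than members. It stood at 257, 268 and 380 CPM in running, sedentary and untreated members, against 354, 604 and 715 CPM in 161, 135 and 356 vein-marked barcodes. Vein-marked barcodes were also deeper, with medians of 3624, 2900 and 2910 UMIs. After thinning, Eln was in 23.6%, 24.9% and 25.2% of members, against 24.1%, 41.0% and 46.4% of vein-marked barcodes. At matched depth the 2 groups were thus close in the running library and the vein-marked group was higher in the other libraries. Bgn, which encodes the matrix proteoglycan biglycan, had 81.2, 51.2 and 120 CPM in members, against 576, 713 and 748 CPM in vein-marked barcodes.

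The wider elastic-fibre list gave a mixed picture of the label. Of its 22 genes outside the rule, 4 passed the minimum of 50 CPM averaged over both groups and all libraries, namely Fbn1, Ltbp4, Fbln2 and Mgp. Fbn1, the fibrillin-1 gene, had 112, 77.5 and 122 CPM in members, against 29.0, 19.4 and 50.5 CPM in the other barcodes. The level of Fbln2, which encodes fibulin-2, was 502, 530 and 582 CPM in members, against 244, 291 and 360 CPM. Lox, whose enzyme crosslinks elastin, was below the minimum, with 17.3, 23.5 and 28.9 CPM in members, against 0.966, 0.619 and 2.96 CPM in the other barcodes. Its relatives Loxl1, Loxl3 and Loxl4, and the microfibril genes Mfap4, Mfap5 and Fbn2, had 0 UMIs in members of all libraries.

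The promoters of Gkn3 and of Cytl1, a gene for a secreted cytokine-like protein, are shown because the level of Cytl1 was higher in members with a Gkn3 UMI, as described further below. Fbln5, detected in most members, is given beside them. Each line is 250 bases upstream of the transcription start, 5′ to 3′ on the gene's strand, from RefSeq on GRCm38.p6: chr6:87388936-87389185 (minus strand) for Gkn3, chr5:37735269-37735518 (plus strand) for Cytl1 and chr12:101819120-101819369 (minus strand, the first of its 2 listed starts) for Fbln5. Capitals mark matches, on either strand, to the RBPJ core TGGGAA or the KLF core CACCC.
Gkn3: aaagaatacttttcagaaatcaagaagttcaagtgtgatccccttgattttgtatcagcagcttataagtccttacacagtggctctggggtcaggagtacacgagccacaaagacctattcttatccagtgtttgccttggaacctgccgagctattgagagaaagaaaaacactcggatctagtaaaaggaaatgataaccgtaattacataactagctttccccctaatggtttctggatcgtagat
Cytl1: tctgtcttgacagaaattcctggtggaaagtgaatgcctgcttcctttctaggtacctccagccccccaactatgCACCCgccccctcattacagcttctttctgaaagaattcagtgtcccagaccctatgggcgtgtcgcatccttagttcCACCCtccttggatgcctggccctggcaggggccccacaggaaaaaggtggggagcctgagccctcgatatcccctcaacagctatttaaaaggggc
Fbln5: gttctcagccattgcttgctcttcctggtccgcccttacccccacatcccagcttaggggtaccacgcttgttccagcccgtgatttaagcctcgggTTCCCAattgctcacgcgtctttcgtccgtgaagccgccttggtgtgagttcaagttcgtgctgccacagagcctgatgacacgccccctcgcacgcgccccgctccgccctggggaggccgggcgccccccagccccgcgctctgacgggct
Cytl1 had 2 CACCC matches and Fbln5 had 1 TGGGAA match, while the Gkn3 window held no match to either, nor to the SOX core ACAAT. The window at the second Fbln5 start, not printed, held 1 CACCC and no TGGGAA. Among 32851 mouse promoters of this length, 52.0% held CACCC, 21.6% TGGGAA and 27.7% ACAAT on either strand, so a match is common and is given as a description only. Promoters were listed for 8 of the 12 genes looked up, and those of Stmn2, Eln, Hey1 and Mgp were not used here.

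**Figure D2:**
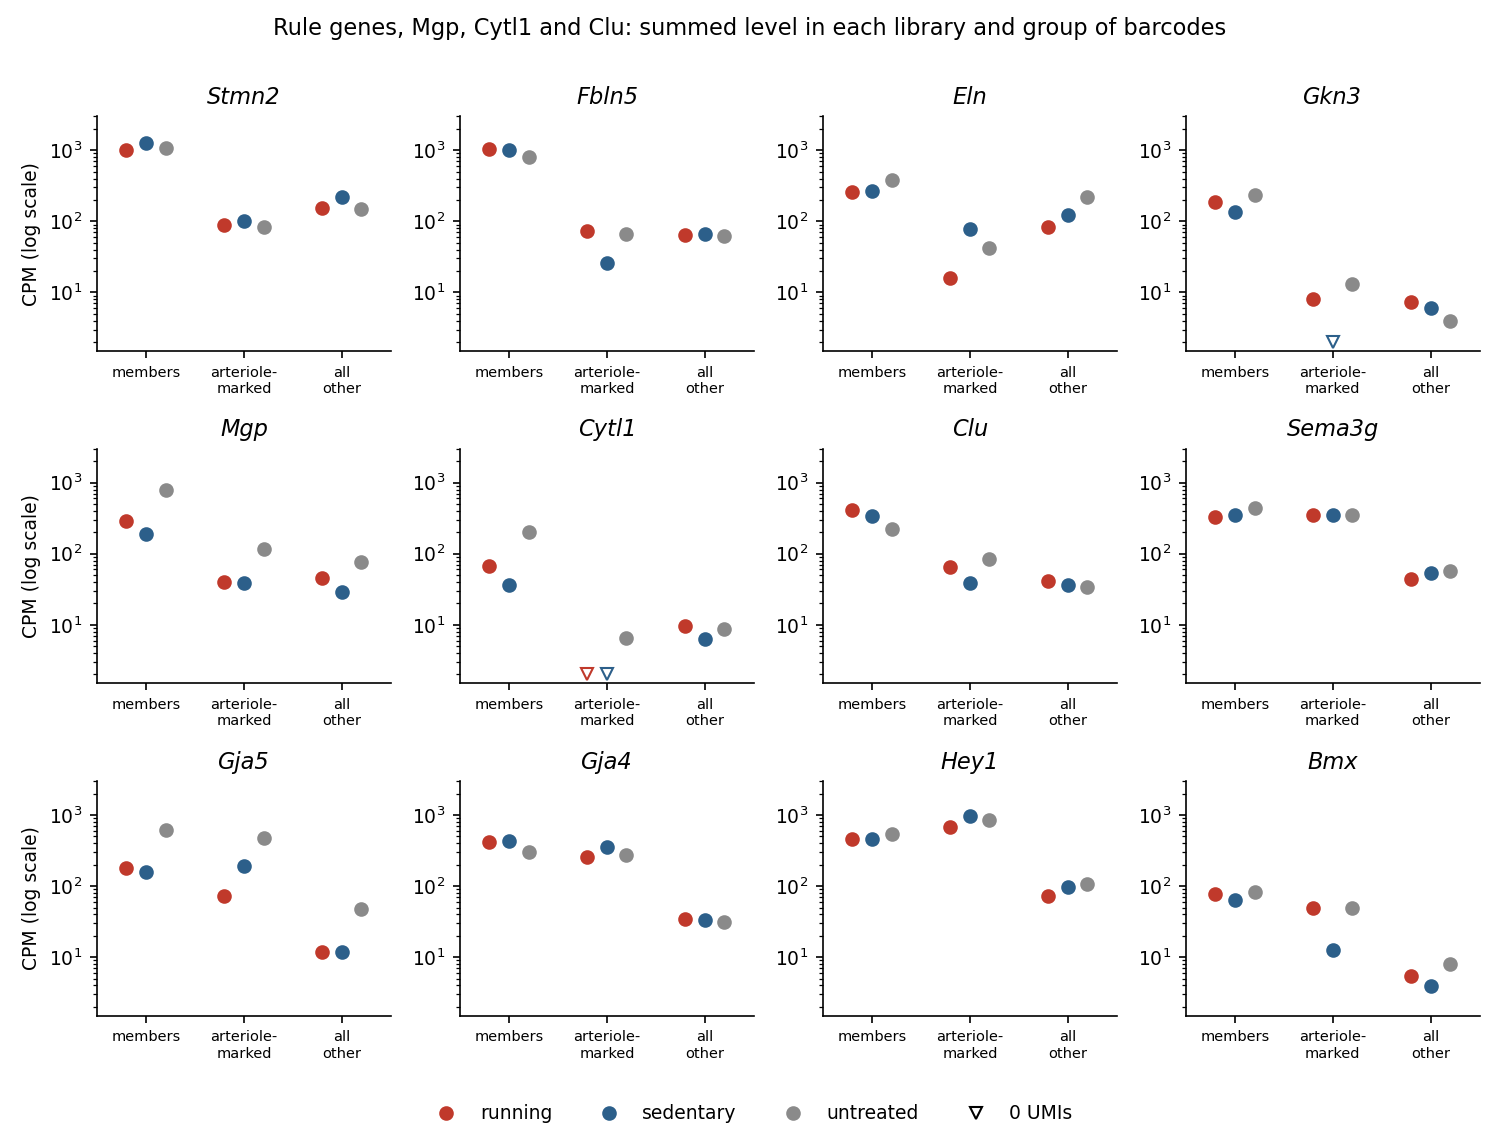
Level of each gene in CPM (log axis), summed over members, arteriole-marked and all other barcodes of each library; 1 point per library, open triangles stand for 0 UMIs and are placed at the foot of the axis. Mgp, Cytl1 and Clu, which the rule did not use, were higher in members in all libraries, while Hey1 was higher in arteriole-marked barcodes of all libraries.

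The comparison with arteriole-marked barcodes asked what distinguishes artery cells with elastic transcripts from artery cells without them. Genes outside the rule that were at least 2-fold higher in members of every library included Cytl1, Mgp and Clu. Mgp had 287, 190 and 798 CPM in running, sedentary and untreated members, against 40.4, 38.4 and 118 CPM in arteriole-marked barcodes, a ratio of 7.12, 4.93 and 6.74. Clu, the gene for the secreted chaperone clusterin, had 411, 335 and 223 CPM in members, against 64.6, 38.4 and 85.5 CPM. Cytl1 had 66.6, 36.0 and 204 CPM in members. Arteriole-marked barcodes held 0, 0 and 2 Cytl1 UMIs, and against a floor of 3 counts per library its level was at least 2.75-fold higher in running members. The sedentary count was too small for a bound above 1.

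Few genes met the call, which was a ratio of at least 2 in the same direction in all 3 libraries. Of 3381 genes at or above 50 CPM, 16 were called higher (0.473%) and 2 lower (0.0592%). The rule used values of these same cells, so these shares are the background of the comparison and not a result of it. Of the 16, 4 were the elastic rule genes, 1 was Ccl21a, and the other 11 are named here. Beside Cytl1, Mgp and Clu they were Rgs10, Cdk19, Azin1, Tmem100, Vegfc, Emp2, Fn1 and Gper1. Cytl1, Rgs10 and Azin1 were below 50 CPM in arteriole-marked barcodes of every library and reached the minimum through the members. Cdk19, Tmem100, Emp2 and Gper1 were below 50 CPM there in the running and sedentary libraries. In the untreated arteriole-marked barcodes they had 78.9, 52.6, 62.5 and 52.6 CPM, so they too reached the minimum mean through the members. The minimum thus favours genes that are high in members.

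Several of the 11 genes encode secreted factors, matrix or receptors. Vegfc, whose product is best known for driving lymphatic growth, had 301, 339 and 297 CPM in members, against 121, 128 and 145 CPM in arteriole-marked barcodes. Fn1, the fibronectin gene, had 301, 288 and 321 CPM, against 145, 64.1 and 108 CPM. Gper1, which encodes a G-protein-coupled oestrogen receptor, had 105, 90.0 and 147 CPM, against 48.5, 38.4 and 52.6 CPM. The last 2 genes and Tmem100 had their smallest ratio turn below 1 when barcodes were thinned to 1000 UMIs before the rule, so under that setting they were not higher in members of every library. Thinning before the rule chose both groups anew and left few UMIs per gene, and the part of depth was not tested. Rgs10, a regulator of G-protein signalling, had 107, 77.5 and 139 CPM, against 0, 12.8 and 42.7 CPM, and was at least 4.39-fold higher in running members. Of the 11 genes, Mgp and Clu kept a ratio of at least 2 in every library under all alternatives run for them. Thinning brought the smallest log2 ratio of Rgs10 to 0.03, of Cdk19 to 0.22, of Azin1 to 0.35 and of Vegfc to 0.42, and Emp2 fell short of 2-fold under several settings. The counting interval of Cytl1, Tmem100, Emp2 and Gper1 crossed 0 in at least 1 library.

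Lower in members were Lgals1, which encodes the lectin galectin-1, and Ccdc85a. Lgals1 had 45.3, 41.5 and 23.8 CPM in members, against 145, 179 and 92.0 CPM in arteriole-marked barcodes. Lgals1 is also abundant in smooth muscle, and arteriole-marked barcodes carried more smooth muscle and pericyte transcripts than members in all libraries (values above). The part of such transcripts in the Lgals1 difference was not tested. When barcodes with them were left out, the sedentary arteriole-marked group held 0 Lgals1 UMIs, against 14 before, and the direction turned there. Ccdc85a had 65.2, 49.8 and 45.9 CPM, against 129, 115 and 98.6 CPM.

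The list of larger artery markers outside the rule leaned the same way in all of its measured genes. The list was drawn up with earlier results of these data known, and Mgp was given with the rule. Its lean is thus a description and lends no weight to the name of these cells. Of 18 genes 12 were measured against arteriole-marked barcodes, all with a mean log2 ratio above 0, against 1561 of 3381 over all genes. Of these 3 were called higher (Mgp, Clu and Cytl1), against 0.473% of all genes, and Cytl1 reached the minimum level only through the untreated members. Their median log2 ratio was 0.46, against -0.02 over all genes measured. Sox17, an arterial transcription factor gene, stood at 681, 635 and 532 CPM in members, against 355, 525 and 496 CPM. Artery genes of the rule were not called in either direction. Hey1 had 461, 465 and 548 CPM in members, against 687, 961 and 838 CPM in arteriole-marked barcodes, which needed more artery UMIs to qualify.

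Capillary fatty acid and transport genes leaned down in members, though none of the 16 measured was called against arteriole-marked barcodes. Their median log2 ratio was -0.36, against -0.02 over all genes, and 13 of 16 lay below 0, against 1820 of 3381. Over all genes 0.473% were called higher and 0.0592% lower, so lists without a call, here and below, are close to that background. Aqp1, the water channel gene, had 1279, 1722 and 448 CPM in members, against 1915, 2985 and 657 CPM. Rgcc, a cell cycle regulator gene rich in capillaries, had 578, 653 and 596 CPM, against 897, 653 and 805 CPM, with no difference in the sedentary library. None of the 26 measured cytoskeleton genes and 15 flow response genes was called, and the flow response median ran from -0.17 to 0.33 over the alternatives.

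Against all other barcodes, 77 of 3376 genes were called higher (2.28%) and 53 lower (1.57%). Those called higher included 3 elastic and 4 artery genes of the rule, and those called lower 2 of its vein genes. Among the genes named by size, which leave out the rule genes, Gper1 stood furthest apart. It had 105, 90.0 and 147 CPM in members, against 6.76, 5.99 and 8.72 CPM in the other barcodes. Col8a1, a gene for a vessel wall collagen, had 329, 277 and 890 CPM, against 29.6, 30.8 and 102 CPM. Fn1 had 301, 288 and 321 CPM, against 41.4, 42.9 and 46.1 CPM. In each library the level of these genes was thus several times that of the other barcodes, and the untreated library had the most Col8a1 in both groups. Igfbp4, which encodes an IGF-binding protein, had 716, 693 and 844 CPM, against 109, 84.8 and 148 CPM.

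Other genes named by size were Rgs10, Dusp26, S100a4, Clu, Mgp and Tgfb2. Of the named genes Gper1, Rgs10, Dusp26, Fn1, S100a4, Clu and Tgfb2 were below 50 CPM in the other barcodes of every library. They reached the minimum mean level through the members, so the minimum favours genes that are high there. Tgfb2, which encodes the cytokine TGF-beta 2, had 112, 130 and 206 CPM in members, against 19.1, 20.2 and 36.5 CPM. Jag1, which encodes a Notch ligand, was the 1 gene of 14 measured Notch and arterial transcription factor genes to be called, with 152, 138 and 246 CPM, against 25.1, 36.5 and 54.8 CPM. The median log2 ratio of that list was 0.38, against 0.03 over all genes. Over all genes 2.28% were called higher and 1.57% lower. Of the 16 flow response genes measured, Edn1 and Ace were called higher and the list's median was -0.02, with both signs among the alternatives. Edn1 encodes the vasoconstrictor endothelin-1 and had 509, 768 and 884 CPM in members, against 80.4, 145 and 345 CPM. Ace, the gene for angiotensin-converting enzyme, had 241, 257 and 309 CPM, against 79.6, 86.3 and 85.3 CPM.

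Several genes lower in members are known from capillaries. Fmo2, which encodes a flavin monooxygenase, had 10.7, 20.8 and 43.3 CPM in members, against 166, 156 and 365 CPM in the other barcodes. Col15a1, a basement membrane collagen gene, had 14.6, 15.2 and 14.4 CPM, against 136, 112 and 117 CPM. Plvap, the gene for the diaphragm protein of fenestrae and caveolae, had 69.2, 62.3 and 53.5 CPM, against 297, 305 and 318 CPM. Aqp1 had 1279, 1722 and 448 CPM, against 5116, 6796 and 3970 CPM, so it remained abundant in members at a much lower level than elsewhere. Also named by size were Trp53i11, Fmo1, Bmp6, Aplnr, Mrrf and Pcdh12.

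Of 16 capillary fatty acid and transport genes measured against all other barcodes, 14 lay below 0, with Aqp1 and Car4 called lower, Ucp2 called higher and a median of -0.75. The background for this list and those below is 2.28% called higher and 1.57% lower over all genes. Ucp2 encodes an uncoupling protein and had 275, 306 and 197 CPM in members, against 120, 130 and 90.3 CPM. Among 15 measured basement membrane and matrix genes, Fn1 and Col8a1 were called higher and Col15a1 and Lama4 lower, with a median of -0.81. All 21 antigen presentation and interferon genes were measured and 20 lay above 0, but none was called and the median was 0.49. The level of H2-D1, a class I histocompatibility gene, was 2670, 2519 and 1888 CPM in members, against 1661, 1557 and 1093 CPM.

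Members also carried less haemoglobin RNA. The 6 erythrocyte markers summed to 705, 1067 and 40.8 CPM in running, sedentary and untreated members, against 5769, 6665 and 207 CPM in the other barcodes. The part of this and of depth in the ratios was not tested. The 11 capillary markers still summed to 16587, 18672 and 15529 CPM in members, against 21642, 23528 and 21239 CPM in the other barcodes. Capillary transcripts such as Fabp4, at 10060, 11707 and 9719 CPM, were thus plentiful in members too.

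Barcodes just inside and just outside the elastic-gene minimum are given as a description. The 53, 79 and 109 members with exactly 3 elastic UMIs had 105, 7.16 and 323 CPM of Mgp, and the 78, 106 and 133 barcodes just outside with 2 elastic UMIs had 44.3, 24.5 and 240 CPM. Rgcc was at 743, 1082 and 731 CPM just inside, against 854, 925 and 943 CPM just outside. In the sedentary library both genes were ordered the other way round from the other libraries. Col8a1 was at 201, 272 and 731 CPM just inside, against 255, 113 and 530 CPM just outside.

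Members were not uniform in Gkn3. The split into members with and without a Gkn3 UMI was added after the data had been seen, so it is a description. Gkn3-positive members numbered 54, 53 and 91, against 211, 257 and 364 Gkn3-negative ones, with medians of 2964, 2407 and 2393 UMIs, against 2392, 2061 and 2244. Cytl1, Mgp and Bgn were higher in the positive members of all libraries, and the chemokine gene Cxcl12 and Rgcc were lower. Of 3360 genes, 12 were called higher (0.357%) and 8 lower (0.238%), among them Gkn3 itself.

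Mgp had 731, 734 and 2985 CPM in Gkn3-positive members of the running, sedentary and untreated libraries, against 147, 72.3 and 255 CPM in Gkn3-negative ones. It was detected in 25.9%, 15.1% and 51.6% of the positive members, against 8.06%, 4.67% and 10.2% of the negative ones. Cytl1 had 183, 164 and 820 CPM, against 29.8, 8.41 and 50.9 CPM, and was found in 6, 5 and 27 positive members, against 5, 4 and 13 negative ones. Both genes were thus at a higher level in the Gkn3-positive fraction of every library, and the share of positive members with Mgp was largest in the untreated library. Among running positive members a single barcode held 52 of 132 Mgp UMIs, and a single barcode held 18 of 33 Cytl1 UMIs. After thinning, Mgp remained in 15.4%, 12.5% and 38.8% of positive members, against 5.31%, 3.32% and 6.48% of negative ones. Most Gkn3-positive members of every library thus had no Mgp UMI at this depth.

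**Figure D3:**
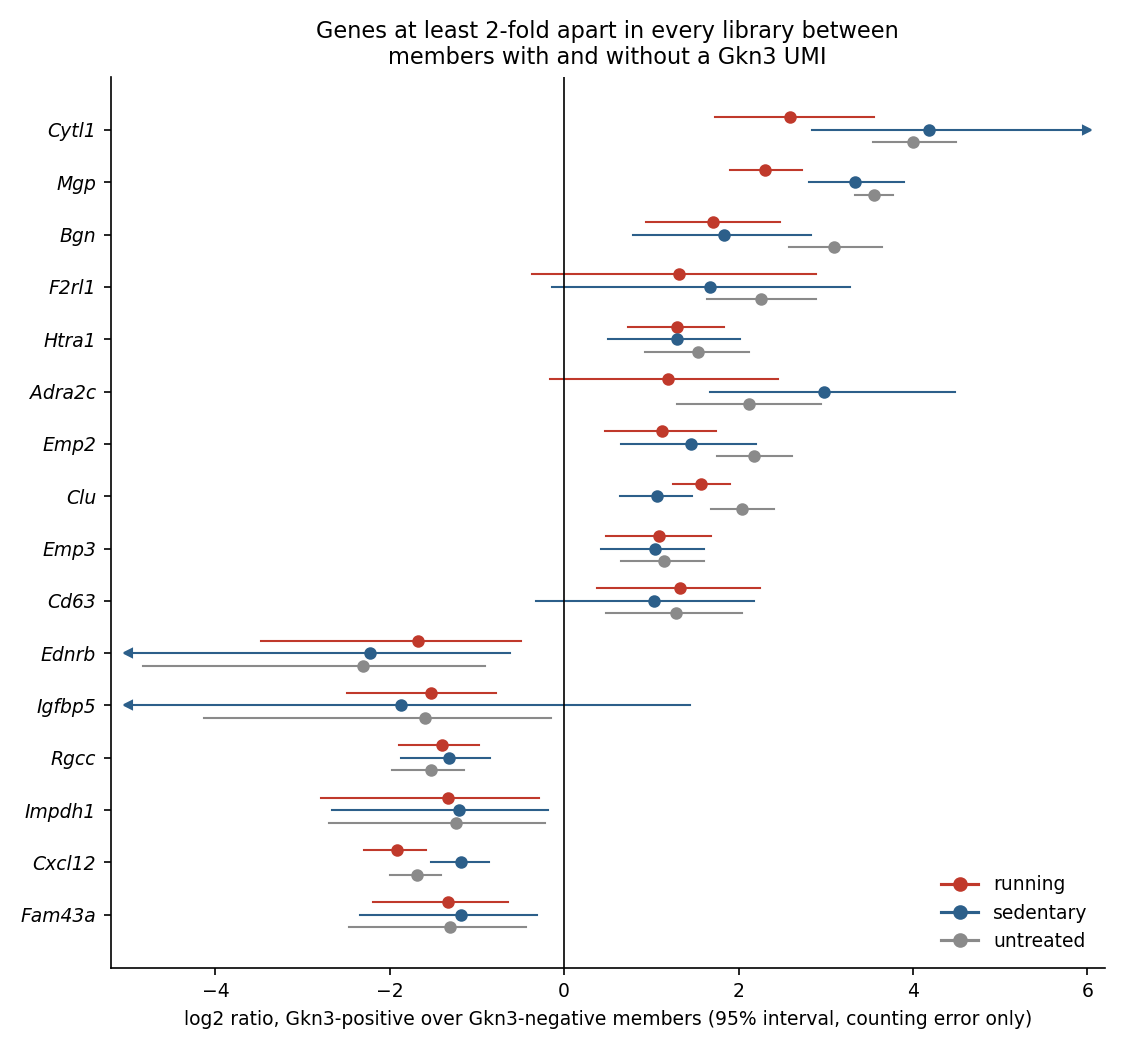
Log2 ratio of Gkn3-positive over Gkn3-negative members (x axis) for the genes named in this comparison (y axis), 1 point per library with its 95% counting interval; arrowheads mark intervals that run past the axis. Mgp lay between 2.31 and 3.55 and Cxcl12 between -1.92 and -1.18, while the sedentary interval of Igfbp5 crossed 0.

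The matrix gene Bgn and the protease gene Htra1 were also named as higher in Gkn3-positive members. Bgn had 172, 125 and 410 CPM, against 52.6, 35.3 and 47.7 CPM, and its detection in these artery cells stood beside the much higher level in vein-marked barcodes given above. Htra1, which encodes a secreted protease that cleaves matrix proteins, had 282, 187 and 184 CPM, against 116, 77.4 and 63.6 CPM. Clu had 830, 585 and 568 CPM, against 279, 281 and 138 CPM. F2rl1, which encodes protease-activated receptor 2, and Adra2c, an alpha-2 adrenergic receptor gene, were at low counts. The interval of F2rl1 crossed 0 in the running and sedentary libraries (log2 -0.36 to 2.89 and -0.14 to 3.28), and that of Adra2c in the running one (-0.16 to 2.45). The tetraspan genes Emp2 and Emp3 and the tetraspanin gene Cd63 were also named, the last with a sedentary interval that crossed 0 (-0.32 to 2.18). F2rl1, Adra2c and Cd63 were below 50 CPM in Gkn3-negative members of every library. Cytl1 was below it there in the running and sedentary libraries, and Bgn in the sedentary and untreated ones. These genes reached the minimum mean level through the Gkn3-positive members, so the minimum favours genes that are high there. Eln had 398, 437 and 722 CPM in Gkn3-positive members, against 212, 232 and 295 CPM, but was not called.

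Artery genes of the rule leaned up in the Gkn3-positive fraction, with all 5 above 0 on average and Bmx called, against 0.357% of all genes. Bmx had 160, 133 and 154 CPM in Gkn3-positive members, against 50.8, 48.8 and 63.6 CPM. Gja5 had 382, 250 and 1029 CPM, against 119, 140 and 510 CPM. Stmn2 went the other way at 830, 1038 and 880 CPM, against 1074, 1301 and 1134 CPM. A member without Gkn3 needed its elastic UMIs from the other 3 genes, so the rule itself shapes this last difference.

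Lower in Gkn3-positive members were Ednrb, Igfbp5, Rgcc, Impdh1, Cxcl12 and Fam43a. Cxcl12, which encodes a chemokine that attracts leukocytes and progenitor cells, had 404, 656 and 453 CPM in Gkn3-positive members, against 1535, 1497 and 1469 CPM in Gkn3-negative ones. Rgcc had 255, 289 and 235 CPM, against 680, 732 and 685 CPM. Ednrb, the endothelin B receptor gene, was represented by 5, 2 and 3 UMIs in Gkn3-positive members and had 27.7, 15.6 and 12.8 CPM, against 96.4, 90.9 and 73.2 CPM. It thus reached the minimum of 50 CPM through the Gkn3-negative members. Capillary fatty acid and transport genes leaned down here as well, with 13 of 15 below 0, Rgcc called and a median of -0.54, against 0.01 over all genes. Over all genes 0.238% were called lower. Igfbp5 and Impdh1 turned above 0 in at least 1 library when barcodes were thinned before the rule, and Igfbp5 also without the 5% deepest barcodes.

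The comparison of running with sedentary mice asked whether voluntary running goes with a different number or state of these artery cells. Members made up 8.25% of running barcodes (7.32% to 9.26%), against 7.72% of sedentary barcodes (6.91% to 8.59%), and 10.5% of untreated barcodes (9.62% to 11.5%). Running minus sedentary was 0.531 percentage points, with an interval of -0.741 to 1.82 that includes 0. The sign turned to -1.64 points with at least 500 genes per barcode, to -1.06 points after thinning and to -0.116 points with at most 5% mitochondrial UMIs, so no direction can be given. Among barcodes with an artery UMI, members made up 32.7%, 31.8% and 35.2%. These are shares of sorted barcodes and not of the muscle, and more artery cells cannot be told apart from more RNA of the rule genes per cell.

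None of the 4 elastic and 5 artery genes of the rule reached a ratio of 1.5 between running and sedentary members. Over all genes measured, only 0.915% were at least 1.5-fold higher and 2.06% at least 1.5-fold lower. Members of both libraries were chosen by UMIs of these same genes, which limits how far their levels can differ. The values are thus a description and do not show that these genes are unchanged. Fbln5 had 1056 CPM in running and 1008 CPM in sedentary members, beside 805 CPM in untreated ones (log2 running over sedentary 0.07, -0.08 to 0.21). Stmn2 had 1016 CPM in running and 1254 CPM in sedentary members, beside 1083 CPM (-0.30, -0.45 to -0.16). Gkn3 had 185 CPM in running and 134 CPM in sedentary members, beside 231 CPM (0.46, 0.08 to 0.85). Elastin differed less than counting error, at 257 CPM in running and 268 CPM in sedentary members (-0.06, -0.36 to 0.23). In all other barcodes the Eln ratio was -0.535 (-0.717 to -0.355). The larger gap lay with the untreated library for Gja5, which had 182 CPM in running and 159 CPM in sedentary members, beside 613 CPM in untreated ones.

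Of 1749 genes at or above 100 CPM, 16 were at least 1.5-fold higher in running members (0.915%) and 36 at least 1.5-fold lower (2.06%). Higher in running members were Mgp and Htra1, larger artery markers that were also higher in the Gkn3-positive fraction. Mgp had 287 CPM in running and 190 CPM in sedentary members (0.60, 0.28 to 0.92), but 798 CPM in untreated ones. Its counts were uneven, with 52 of 216 running and 36 of 137 sedentary UMIs in a single member each. Htra1 stood at 156 CPM in running and 96.9 CPM in sedentary members, beside 87.5 CPM in untreated ones (0.68, 0.24 to 1.13). In all other barcodes Mgp differed by a similar amount (0.66), while Htra1 did not differ beyond counting error (-0.20, -0.66 to 0.26). In arteriole-marked barcodes Mgp was level (-0.01, -2.29 to 2.76). Htra1 had 48.5 CPM in running and 0 CPM in sedentary arteriole-marked barcodes, with a lower bound of -0.43, so its difference is not shown to be particular to members. Cytl1 had 50 running and 26 sedentary UMIs (0.87, 0.18 to 1.63), and it reached the minimum level only through the untreated members. Mgp and Cytl1 were highest in those.

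The other named genes higher in running members included H2-Q7, Ldb2 and Dbp. H2-Q7, a class I histocompatibility gene with near-identical neighbours to which reads may be divided, had 256 CPM in running and 138 CPM in sedentary members. Its log2 ratio was also above 0 in arteriole-marked barcodes (1.40, 0.33 to 2.78) and in all other barcodes (0.77, 0.61 to 0.94). Ldb2, which encodes a LIM-domain-binding cofactor, had 230 CPM in running and 127 CPM in sedentary members (0.85, 0.48 to 1.24). Its ratio was -0.11 in arteriole-marked and 0.46 in all other barcodes. Dbp, a clock output transcription factor gene, had 246 CPM in running and 155 CPM in sedentary members (0.67, 0.32 to 1.02). Its direction was opposite in all other barcodes, with 113 CPM in running and 161 CPM in sedentary ones (-0.52, -0.67 to -0.36). The Dbp ratio in arteriole-marked barcodes was -0.352 (-1.365 to 0.702). Itm2c, Ctla2a, Ttc28, Ndufa1 and Emp1 completed the named genes, with log2 ratios of 0.74, 0.60, 0.79, 0.65 and 0.59. In arteriole-marked barcodes the same ratios were 1.29, -0.20, 0.51, -0.41 and 2.55. Emp1 turned to -0.31 when barcodes were thinned before the rule.

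**Figure D4:**
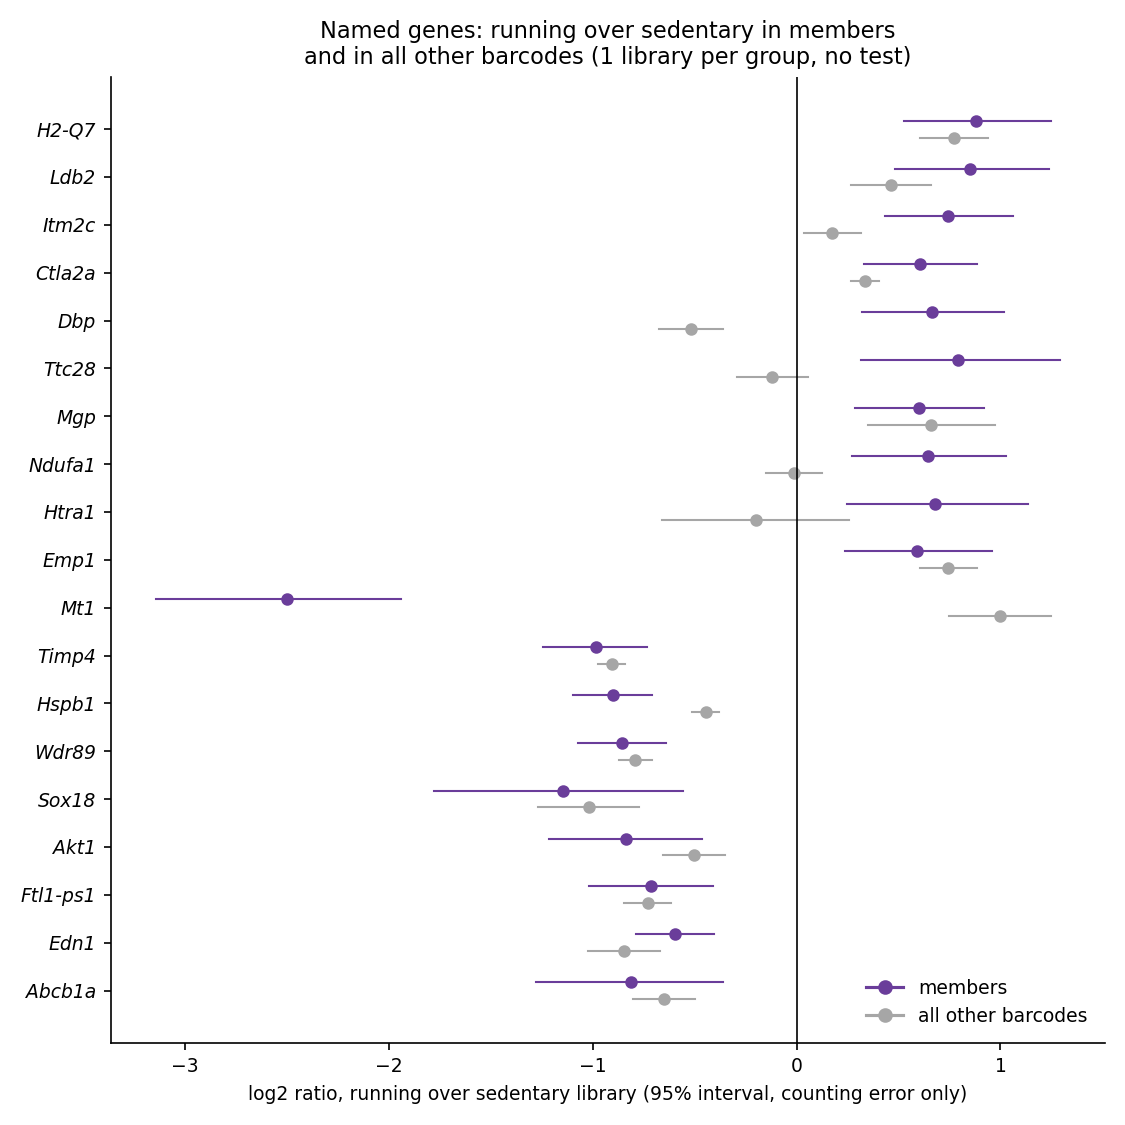
Log2 ratio of the running over the sedentary library (x axis) for the genes described (y axis), in members (purple) and all other barcodes (grey), with 95% counting intervals; each library is 1 sample and no test was made. Timp4, Sox18 and Edn1 were lower in both groups of barcodes, while Dbp and Mt1 pointed in opposite directions.

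Genes lower in running members included several with a vascular role. Edn1 had 509 CPM in running and 768 CPM in sedentary members, beside 884 CPM in untreated ones (-0.59, -0.79 to -0.41). Sox18, which encodes a transcription factor of vessel development, had 46.6 CPM in running and 104 CPM in sedentary members, beside 188 CPM (-1.15, -1.78 to -0.56). Timp4, which encodes a matrix metalloproteinase inhibitor, had 257 CPM in running and 509 CPM in sedentary members, beside 391.6 CPM (-0.99, -1.25 to -0.73). In all other barcodes the same ratios were -0.84 for Edn1, -1.02 for Sox18 and -0.91 for Timp4. The lower levels of these 3 genes were thus seen in the pooled other barcodes as well as in members. In arteriole-marked barcodes the ratios were -0.516 for Edn1 (-1.313 to 0.293), -0.135 for Sox18 (-2.156 to 2.188) and -0.390 for Timp4 (-0.970 to 0.202). These intervals include 0, so no difference is shown in that smaller group.

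Hspb1, the small heat shock protein gene, had 447 CPM in running and 836 CPM in sedentary members, beside 538 CPM in untreated ones (-0.90, -1.10 to -0.71). In all other barcodes the ratio was -0.45 (-0.51 to -0.38), and in arteriole-marked ones -0.316 (-0.829 to 0.208). Whether members differ from either group in this was not tested. Akt1, a growth signalling kinase gene, and Abcb1a, a drug efflux transporter gene, had log2 ratios of -0.83 and -0.81 in members. Wdr89 and Ftl1-ps1 were also lower (-0.86 and -0.71), but near-identical copies of these sequences make their counts uncertain.

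Mt1, a metallothionein gene that responds to metals and stress, had the widest gap of the named genes. It had 38.6 CPM in running members on 29 UMIs and 221 CPM in sedentary members on 160 UMIs, beside 169 CPM in untreated ones (-2.50, -3.14 to -1.94). A single sedentary member held 46 of those UMIs, and without the member with most UMIs in each library the ratio was -2.28. All other barcodes pointed the other way, with 80.8 CPM in running and 40.4 CPM in sedentary ones (1.00, 0.75 to 1.25). In arteriole-marked barcodes the Mt1 ratio was 0.072 (-1.350 to 1.696).

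Few genes of the lists were called between running and sedentary members. Over all genes 0.915% were called higher and 2.06% lower. Of 13 measured flow response genes 12 lay below 0, with a median of -0.16 against -0.01 over all genes, and Edn1 alone was called. Klf2 and Klf4, transcription factor genes induced by laminar flow, had log2 ratios of -0.05 (-0.16 to 0.06) and -0.17 (-0.30 to -0.04). Of 12 Notch and arterial transcription factor genes Sox18 was called lower and the median was -0.07. Among 12 measured larger artery markers Mgp, Htra1 and Cytl1 were called higher, against 0.915% of all genes, with a median of 0.14, and Cytl1 was measured only through the untreated members. The 4 measured elastic-fibre genes had a median of 0.26, and Fbn1 had 112 CPM in running and 77.5 CPM in sedentary members (0.52, 0.02 to 1.04). Immediate-early genes, which respond to tissue dissociation, had a median of 0.14 with none of 19 called, and the 24 oxidative phosphorylation genes a median of 0.01 with Ndufa1 called higher. Over the alternatives the elastic-fibre median ran from -0.06 to 0.49, the immediate-early median from -0.14 to 0.20 and the Notch median from -0.18 to 0.10, so no direction can be given for these lists.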

How the data were processed

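Single-cell RNA libraries of sorted mouse gastrocnemius endothelium, 1 per group, came from a 10x Chromium 3' kit (version 2), per the labels' protocols. The submitters' processing notes name Cell Ranger 2.0.2 and GRCm38.p5. The deposited matrices hold unnormalized UMI counts for 41605 gene rows and were used as deposited, with 3260 running, 4079 sedentary and 4376 untreated barcodes and 5983685, 5625068 and 8002866 UMIs.

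UMI counts were summed per class of barcodes and library and scaled to 1000000 (CPM). Log2 ratios used a prior count of 0.5. Intervals are exact for a ratio of Poisson counts or, for shares, Clopper-Pearson. Between classes a gene was called at 2-fold in the same direction in all 3 libraries with a mean of at least 50 CPM, and between running and sedentary members at 1.5-fold with a mean of at least 100 CPM. With 1 library per group no test was made. No doublet caller was run. Alternatives left out the 5% deepest barcodes and those with smooth muscle and pericyte transcripts.

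Named genes are called genes, ranked between classes by the smallest of the 3 library ratios and between running and sedentary members by the interval bound nearest 0, up to 15 against arteriole-marked barcodes and 10 otherwise in each direction. Rule genes, mitochondrial, ribosomal and unnamed genes and markers of other cell types were left out of that ranking, and the rule genes, Mgp and examples of each list were added. A gene that this rule names is not reported here. The members and the 34 gene lists were chosen with earlier results of these data known. Python 3.11.15, numpy 2.4.6, scipy 1.17.1 and pandas 2.3.3 were used, and edgeR 4.0.16 (R 4.3.3) for TMM factors as an alternative scaling. The calculation was tested on simulated data.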

Additional observations from a re-analysis of the deposited data

Results flagged for a closer look

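Dbp and Mt1 differed in direction between members and all other barcodes in the running against sedentary contrast. For Dbp the log2 ratio of running over sedentary was 0.665 in members and -0.516 in all other barcodes. For Mt1 it was -2.500 in members and 0.996 in all other barcodes. In arteriole-marked barcodes it was -0.352 for Dbp (-1.365 to 0.702) and 0.072 for Mt1 (-1.350 to 1.696). Each ratio compares 1 library with 1 library, and the difference between these groups of barcodes was not tested.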

How the results depend on the processing

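No paired analysis was possible because every group has 1 library. Recomputing the 9 main values under 28 alternative settings, where they applied, gave 205 values, of which 150 stayed close and 55 moved. Of 2674 alternative values of the list medians 426 moved. The cause of each change was not tested unless the setting itself sets it. Running minus sedentary share was -1.641 points with at least 500 genes per barcode and -1.061 after thinning, and -0.116 with at most 5% mitochondrial UMIs. Against arteriole-marked barcodes the 16 higher genes became 10 with 2 elastic UMIs, 10 with a prior count of 2, 9 with the CPM minimum doubled, 40 with no minimum and 29 without the untreated library. The 2 lower genes became 4 with 4 elastic UMIs, 2 arterial UMIs, no Fbln5 in the rule or a prior count of 2. They became 1 with at least 500 genes or TMM, 11 with no Stmn2 in the rule, 17 after thinning, and 17, 0 and 2416 with the minimum halved, doubled or dropped. Leaving out a library gave 8 to 14. That count thus depends on these settings.

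Against all other barcodes the 77 higher genes became 40 with the minimum doubled and 2364 with none, and the 53 lower became 83 with it halved, 24 doubled and 316 with none. For Gkn3-positive members the 12 higher genes became 19 with 2 elastic UMIs, 7 with 2 arterial UMIs or no Stmn2 in the rule, 51 after thinning, 19 with the minimum halved, 825 with none, 24 without the sedentary library and 41 when split by Mgp. The 8 lower became 3 with 2 arterial UMIs or no Stmn2, 13 and 4 with the minimum halved or doubled, 54 with none, 18 without the sedentary and 13 without the untreated library. For running against sedentary members the 16 higher genes became 9 with 2 elastic UMIs, 33 with no Fbln5 and 42 with no Stmn2 in the rule, 185 after thinning, 36 without the 5% deepest barcodes, 26 without barcodes with smooth muscle and pericyte transcripts, 25 with members weighted equally, and 95, 5 and 3402 with the minimum halved, doubled or dropped. The 36 lower became 194 after thinning and 101, 11 and 2718 with the minimum halved, doubled or dropped.

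The smallest log2 ratio of a named gene changed sign after thinning for Tmem100 (-0.312), Fn1 (-0.343), Gper1 (-0.161), Lgals1 (0.883), Igfbp5 (0.485), Impdh1 (0.933) and, between running and sedentary, Emp1 (-0.313). Lgals1 was at 2.011 without barcodes with smooth muscle and pericyte transcripts. Igfbp5 was at 0.825 without the 5% deepest barcodes and 0.809 when split by Mgp. Thinned sums hold few UMIs per gene, and the 39 sedentary arteriole-marked barcodes, with 78050 UMIs, limit that comparison most.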
